A study of Mus musculus with 425 samples.

Results

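Pf4, Cxcl1, Ccl24 and Ccl6 encode 4 chemokines, and they were picked by name from the 15741 genes of a table of molecule counts in single brain macrophages of the mouse. The table covers 425 cells of CD-1 mice, an outbred strain, captured on 197 microfluidic chips, and the study's title names the cells as microglia and perivascular macrophages. No treatment, genotype or sex is given for any cell. The 409 cells used here came from postnatal brain (356 cells, postnatal days 16 to 31), embryonic brain and dorsal horn (43 cells, all under 1 label, E11.5-E18.5), older brain (6 cells, days 67 to 90), dorsal epidermis (2 cells, day 56) and bone marrow (2 cells, day 23), and the 16 cells labelled sscortex were left out. Postnatal regions keep the names of the labels: cortex S1, DentGyr, Amygdala, hypothalamus, ZonaIncerta, SN-VTA, hippo CA1, striatum and dorsal horn. The labels name no animals and no cell classes.

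Chemokines are small secreted proteins that direct the movement of leukocytes through receptors on the cell surface. Pf4, also called CXCL4, is best known from platelet granules and binds Cxcr3 and glycosaminoglycans. Cxcl1 is a neutrophil attractant that acts on Cxcr2 and is induced in macrophages by the transcription factor NF-kB. Ccl24, or eotaxin-2, attracts eosinophils through Ccr3 and is a known product of macrophages exposed to IL-4. Ccl6 is a CC chemokine of rodents that acts on Ccr1 and is made by many myeloid cells. Mrc1, the mannose receptor, marks macrophages at the borders and along the vessels of the brain, whereas Tmem119 and P2ry12 mark microglia, the macrophages of the parenchyma.

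On GRCm38, Pf4 (chromosome 5, 90772435 to 90773383, plus strand, 3 exons) and Cxcl1 (chromosome 5, 90891241 to 90893115, plus strand, 4 exons) lie 117.9 kb apart in the CXC chemokine cluster, with Cxcl2 10.8 kb beyond Cxcl1. Ccl24 lies on the minus strand of the same chromosome (135569937 to 135573049, 3 exons). Ccl6 lies on chromosome 11 (83587882 to 83593087, minus strand, 4 exons), 9.2 kb from Ccl9, and overlaps the opposite-strand gene E230016K23Rik, for which the table has no row. No stretch of 50 bases in the transcripts of the 4 genes was shared with a transcript of another gene. The 250 bases before the RefSeq transcription start are shown for Pf4, Cxcl1 and Ccl6, the 3 members with an entry in the promoter table, so that the 2 genes of 1 cluster can be read beside each other.

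Pf4, chr5:90772185-90772434, plus strand: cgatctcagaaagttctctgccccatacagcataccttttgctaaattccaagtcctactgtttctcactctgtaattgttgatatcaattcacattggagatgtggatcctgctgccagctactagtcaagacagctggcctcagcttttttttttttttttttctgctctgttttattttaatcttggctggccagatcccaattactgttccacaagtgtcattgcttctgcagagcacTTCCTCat
Cxcl1, chr5:90890995-90891244, plus strand: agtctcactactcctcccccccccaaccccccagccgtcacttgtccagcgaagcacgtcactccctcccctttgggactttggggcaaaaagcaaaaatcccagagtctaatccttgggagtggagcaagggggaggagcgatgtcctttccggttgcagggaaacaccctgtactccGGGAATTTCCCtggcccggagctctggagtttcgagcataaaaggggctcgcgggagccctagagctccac
Ccl6, chr11:83593088-83593337, minus strand: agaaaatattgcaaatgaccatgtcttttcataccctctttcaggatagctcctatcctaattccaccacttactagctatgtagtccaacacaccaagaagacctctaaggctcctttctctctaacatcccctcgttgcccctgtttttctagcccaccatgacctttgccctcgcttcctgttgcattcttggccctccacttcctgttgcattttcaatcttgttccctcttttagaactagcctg

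These sequences are RefSeq's, on GRCm38.p6, and read 5′ to 3′ toward the gene. Capitals mark matches to 5 motifs searched on both strands: the NF-kB consensus, the TATA box TATAAA, the STAT6 motif (TTC and GAA with 4 bases between them), the PU.1 motif GAGGAA and the AP-1 motif TGANTCA. Cxcl1 held a pair of overlapping NF-kB matches, from base 71 to base 61 before the start, and 3.90% of 32851 promoters of the same length held at least 1. Pf4 held the PU.1 motif on its minus strand from base 8 to base 3 before the start, where 23.3% of promoters hold that motif somewhere in the window. Ccl6 matched none of the 5 motifs. TATAAA (12.4% of promoters), the STAT6 motif (5.85%) and TGANTCA (6.75%) matched none of the 3 windows. A match describes letters only and says nothing of binding.

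Levels are counts of unique molecular identifiers (UMIs) of a gene in a cell or group of cells, scaled to 1000000 UMIs over the listed genes (CPM). The chemistry counts 1 tag at the 5′ end of each molecule, so a level does not scale with transcript length. A cell had between 729 and 10260 UMIs over the listed genes, with a median of 1995. Cells were divided by Mrc1: at least 3 UMIs (Mrc1-rich, 203 postnatal brain cells, median total 2099 UMIs), 1 or 2 UMIs (15 cells, 1522) or none (Mrc1-absent, 138 cells, 1701.5). The 9 perivascular macrophage markers of a list taken from general knowledge summed to 15917 CPM in Mrc1-rich cells and 241 CPM in Mrc1-absent cells, all 9 of them present in the former, and Folr2 was at 0 in the latter. The 10 microglia markers summed to 3403 CPM in Mrc1-rich and 31781 CPM in Mrc1-absent cells. Tmem119 had 10 UMIs in 203 Mrc1-rich cells and 260 in 138 Mrc1-absent cells. The cells under the embryonic label differed in myelin RNA, which oligodendrocytes of the cortex make mostly after birth. The 8 oligodendrocyte markers summed to 25829 CPM in the Mrc1-rich cells of embryonic cortex S1 (1067 to 110185 per cell) and to 102426 CPM in the 7 dorsal horn cells, all Mrc1-absent (6478 to 171914 per cell). In embryonic ventral midbrain they summed to 132 CPM over the 2 Mrc1-rich cells and had 9 UMIs over the 17 Mrc1-absent cells. The age of the cortex S1 and dorsal horn cells rests on that label alone, and these values leave it in doubt. The source of this RNA was not tested. RNA of other cell types was present on both sides of the postnatal brain. Summed in the same way, the oligodendrocyte markers stood at 33243 CPM in Mrc1-rich cells (0 to 209346 per cell, median 1894). In Mrc1-absent cells they stood at 20771 CPM (0 to 227867 per cell, median 741).

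Pf4, Ccl24 and Cxcl1 were found almost entirely in Mrc1-rich cells of the postnatal brain, and Ccl6 was not. Pf4 had a UMI in 200 of 203 Mrc1-rich cells, Ccl24 in 171, Cxcl1 in 64 and Ccl6 in 31. Among 138 Mrc1-absent cells the same genes had a UMI in 1, 3, 0 and 39 cells. The plot of levels per cell shows these 4 patterns together with the embryonic, epidermal and bone marrow cells described further on. Because the cells were divided by a measured gene, the 2 sides are described and not tested.

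**Figure D1:**
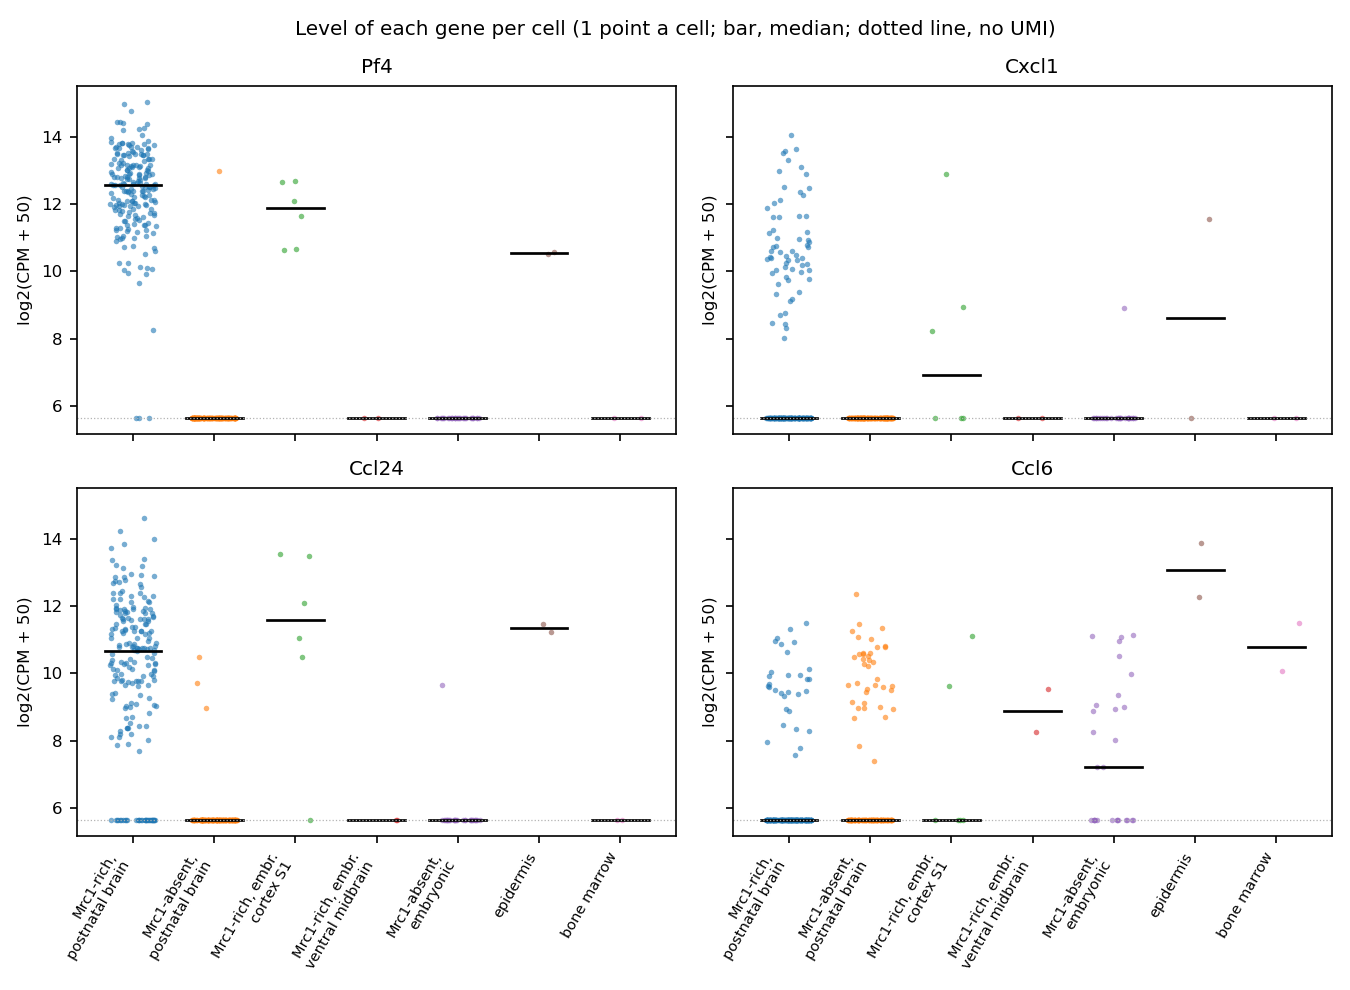
Level of Pf4, Cxcl1, Ccl24 and Ccl6 in single cells, as log2(CPM + 50) on the y axis, with 1 point a cell, the median as a black bar and the level of a cell without a UMI as a dotted line. Pf4 lies well above that line in 200 of 203 postnatal Mrc1-rich cells and on it in 137 of 138 Mrc1-absent cells, whereas Ccl6 is scattered in both and highest in 1 of the 2 epidermis cells.

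Pf4 was the most even of the 4 genes. Over all Mrc1-rich cells it stood at 5976 CPM (3149 UMIs, exact 95% Poisson interval 5769 to 6189), against 46.1 CPM (24.6 to 78.9) in Mrc1-absent cells. Summed per postnatal day, with 2 or more cells on each side on 11 days, it averaged 6496 CPM ± 1148 (SD, n = 11 days, lowest 5096, highest 8607) in Mrc1-rich cells and 20.2 ± 67.0 in Mrc1-absent cells. The lowest Mrc1-rich day lay above the highest Mrc1-absent day, which was day 22 at 222 CPM. All 13 Pf4 UMIs of the Mrc1-absent side came from 1 ZonaIncerta cell of 1630 UMIs, which had no Tmem119 and held 3 UMIs each of Cbr2 and Ms4a7 and 2 of Lyve1, which mark perivascular macrophages. A median Mrc1-rich cell had 13 Pf4 UMIs, the highest had 57, and 137 cells had at least 10. The 3 Mrc1-rich cells without Pf4 had exactly 3 Mrc1 UMIs each, the lowest count that the division admits. Of the 7 cells with 3 Mrc1 UMIs, 4 held Pf4, as did 15 of 15 cells with 4. Just outside, 4 of 5 cells with 2 Mrc1 UMIs and 8 of 10 with 1 held Pf4.

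Ccl24 followed the same division at a lower level. It stood at 2190.0 CPM (1154 UMIs, 2065 to 2320.1) in Mrc1-rich cells and at 10.6 CPM (3 UMIs, 2.20 to 31.1) in Mrc1-absent cells. The day pools averaged 2160.2 CPM ± 515 (SD, n = 11, lowest 1509.8, highest 3064) in Mrc1-rich cells and ran from 0 to 32.4 CPM in Mrc1-absent cells, without overlap. A median Mrc1-rich cell had 3 Ccl24 UMIs and the highest had 120, a cortex S1 cell of day 22 that also had 57 Pf4 UMIs among 6323 in all. In cells thinned to 1000 UMIs, Ccl24 was seen in 128 of 187 Mrc1-rich cells and 1 of 119 Mrc1-absent cells.

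Cxcl1 had UMIs in a minority of the Mrc1-rich cells and was at 0 in the Mrc1-absent cells. It stood at 919 CPM (484 UMIs, 839 to 1004) in the former. The 0 of 138 Mrc1-absent cells allow a level of up to 10.6 CPM and up to 2.17% of cells with a UMI, which does not limit the share of cells that express the gene. Day pools averaged 824 CPM ± 535 (SD, n = 11, lowest 126, highest 1721) in Mrc1-rich cells. Summed over all cells of those days, with 478 UMIs against 0, Cxcl1 was at least 88.1-fold higher in Mrc1-rich cells, taking 3 counts over the group as the floor. Its UMIs were unevenly spread: 9 cells held at least as many as all the others together, the highest 70 (a cortex S1 cell of day 27), and 139 cells had none. Thinned to 1000 UMIs per cell, the variance over the mean across 187 Mrc1-rich cells was 6.82 for Cxcl1, 5.09 for Ccl24, 4.66 for Pf4, 2.58 for Mrc1 and 1.76 for Ccl6. This ratio can rise with the mean, which ran from 0.123 UMIs for Ccl6 to 6.87 for Pf4, so it does not order the genes by evenness. The 9 cells were from cortex S1, SN-VTA and Amygdala. Cells with and without Cxcl1 shared chips. Of 15 chips that held at least 3 Mrc1-rich cells (79 cells in all), 13 had both kinds of cell and 2 had no Cxcl1, while Pf4 was in every cell on all 15.

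**Figure D2:**
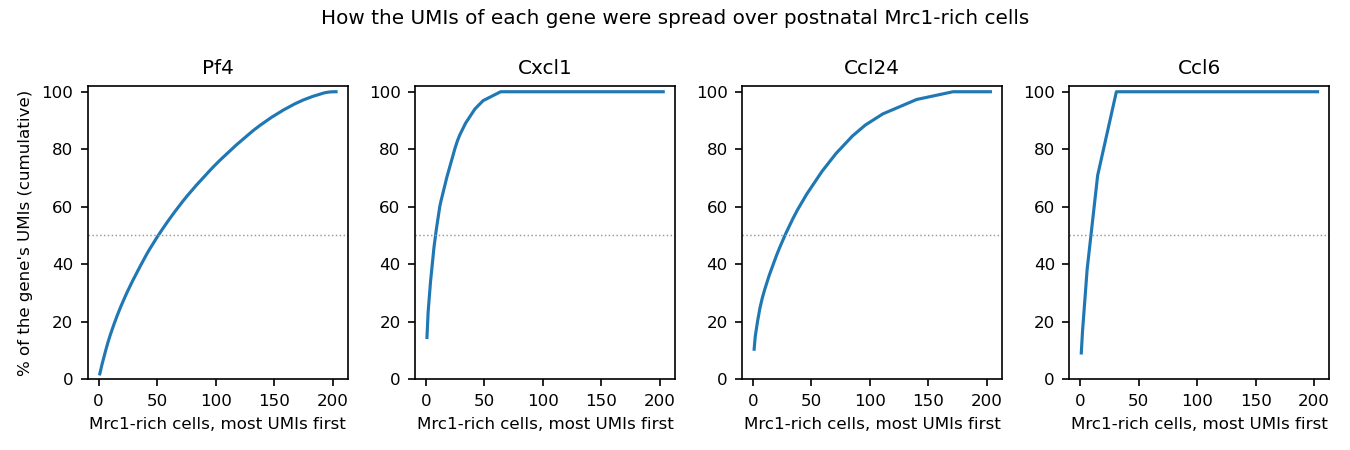
Cumulative percentage of each gene's UMIs (y axis) over the 203 postnatal Mrc1-rich cells, ordered on the x axis from the cell with most UMIs; the dotted line marks where the cells so far hold as many UMIs as the rest. The line is reached at 51 cells for Pf4, 28 for Ccl24, 10 for Ccl6 and 9 for Cxcl1.

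Ccl6 was the only member with a lower level in Mrc1-rich cells. It had 55 UMIs there, with an exact 95% interval of 78.6 to 136 CPM, and stood at 256 CPM (72 UMIs, upper bound 322) in Mrc1-absent cells. The Mrc1-absent day pools averaged 236 CPM ± 178 (SD, n = 11, 0 to 570.1) and the Mrc1-rich pools ran from 0 to 319 CPM. The ranges overlapped, and the Mrc1-rich pool was the higher on 1 of 11 days. No Mrc1-rich cell of the postnatal brain had more than 5 Ccl6 UMIs. Its neighbour Ccl9, a CC chemokine that also acts on Ccr1, showed the same order, with 73.8 CPM ± 94.9 in Mrc1-rich and 439 ± 263 in Mrc1-absent day pools. For scale, 52 of 7909 genes with at least 20 UMIs (0.657%) were higher in every Mrc1-rich than in every Mrc1-absent day pool, Pf4, Ccl24 and Cxcl1 among them, and 29 (0.367%) were lower in every one, which Ccl6 was not. Genes near 20 UMIs have few counts for 11 pools, whereas Pf4, Ccl24 and Cxcl1 had 3075, 1124 and 478 UMIs in the Mrc1-rich pools. The share among genes of their level was not computed and may be higher.

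**Figure D3:**
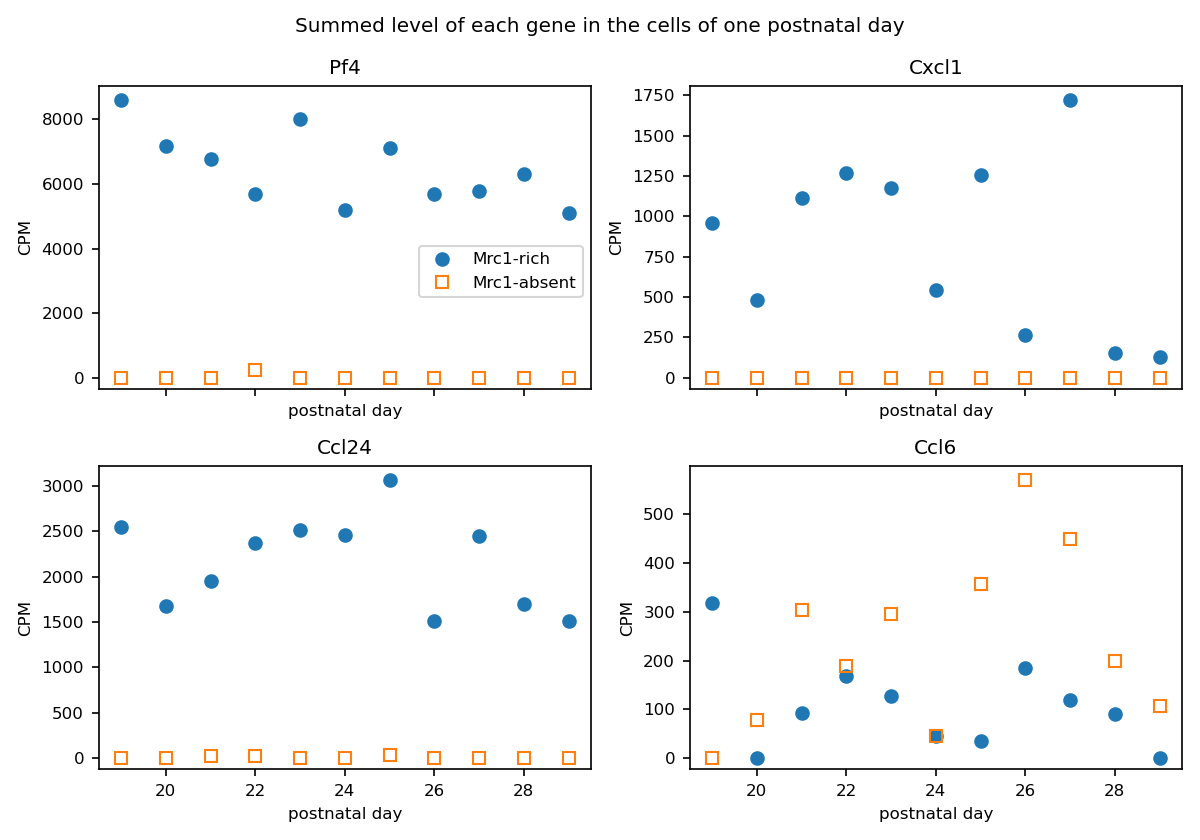
Level of each gene in CPM (y axis) in the summed cells of one postnatal day (x axis), with Mrc1-rich cells as filled circles and Mrc1-absent cells as open squares. Pf4, Cxcl1 and Ccl24 do not overlap on any of the 11 days, and for Ccl6 the squares lie higher on most days.

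Members are given here by the cells they shared, beside each gene's share of all Mrc1-rich cells. Of 203 Mrc1-rich cells, 8 held all 4 genes, 69 held 3, 21 held 1, 2 held none and the others held 2. All 64 cells with Cxcl1 also held Pf4, beside 98.5% of all Mrc1-rich cells, and 59 of them (92.2%) held Ccl24, beside 84.2% of all. Conversely, 34.5% of the cells with Ccl24 held Cxcl1, beside 31.5% of all. After thinning to 1000 UMIs, Spearman's rho across 187 cells was 0.35 between Pf4 and Ccl24, 0.20 between Cxcl1 and Ccl24, 0.13 between Pf4 and Cxcl1 and at most 0.09 for Ccl6 with any other. These are descriptions over cells that share chips and depth, and weak values in sparse counts carry no finding.

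Among Mrc1-rich cells, the spread of Pf4, Ccl24 and Cxcl1 between days within a region was wide, and single pools carried several region means. Cells were summed into pools of 1 region and 1 postnatal day with at least 3 cells, so that pools of different days come from different animals, while pools of the same day may share them. Pf4 stood at 8601, 18409.6 and 3815 CPM in the 3 pools of SN-VTA (mean 10275 ± 7440.0, SD), and the mean was 6208 CPM without the 3-cell pool of day 23. ZonaIncerta had 8607, 9359.9 and 8839.9 CPM, the tightest group, with a higher median than SN-VTA. The means were 7820.0 ± 3869 in Amygdala (6 pools), 7173 ± 3875 in hypothalamus (5), 6068 ± 2045 in cortex S1 (7) and 4712 ± 1436 in DentGyr (3), and the 1 hippo CA1 pool stood at 4690.2 CPM. Every one of the 28 pools held Pf4, from 3144 to 18409.6 CPM, and the ranges of all regions with several pools overlapped with that of SN-VTA.

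Ccl24 had another order, with the single hippo CA1 pool, of 4 cells on day 27, at 7652 CPM. Of its 93 UMIs, 53 and 25 came from 2 cells. The other hippo CA1 days had 1 or 2 Mrc1-rich cells each and formed no pool. They stood lower, at 1654, 1060.3, 2107, 0 and 1306 CPM on days 22, 23, 24, 26 and 28. SN-VTA pools stood at 3295, 8949 and 2156 CPM (mean 4800.2 ± 3638, or 2726 without day 23). ZonaIncerta averaged 2565 ± 1051 CPM, Amygdala 2014 ± 931, cortex S1 1988 ± 771, hypothalamus 1915 ± 2268 and DentGyr 1459 ± 1501. The last 2 were 932 CPM without the hypothalamus pool of day 25 and 599.5 CPM without the DentGyr pool of day 23. The gene was present in all 28 pools, the lowest being a hypothalamus pool at 262 CPM.

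Cxcl1 had region means from 0 CPM in DentGyr to 3114 CPM in SN-VTA. It stood at 2625, 6137 and 581 CPM in SN-VTA (mean 3114, or 1603 without day 23), and at 956, 2264 and 1522 CPM in ZonaIncerta. Cortex S1 ranged from 159.9 to 3391 CPM (median 566, 7 pools) and hypothalamus from 0 to 777 CPM (median 189, 5 pools). In Amygdala 4 of 6 pools were at 0, and 1 pool of day 25 reached 3700.3 CPM. Without that pool the Amygdala mean of 676 CPM was 71.2, without day 27 the cortex S1 mean of 1001 was 603.1, and without day 23 the hypothalamus mean of 259.6 was 130.3. No Cxcl1 UMI was found in the 3 DentGyr pools, nor in any of 13 Mrc1-rich DentGyr cells, which allows up to 23.1% of cells with a UMI and does not limit the share that expresses it. By cells, Cxcl1 was seen in 12 of 16 Mrc1-rich cells of ZonaIncerta, 8 of 18 of SN-VTA, 31 of 91 of cortex S1 and 4 of 26 of Amygdala. Thinned to 1000 UMIs, the shares were 45.5%, 25.0%, 31.5% and 19.0%, and no order of SN-VTA and cortex S1 is read from them.

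**Figure D4:**
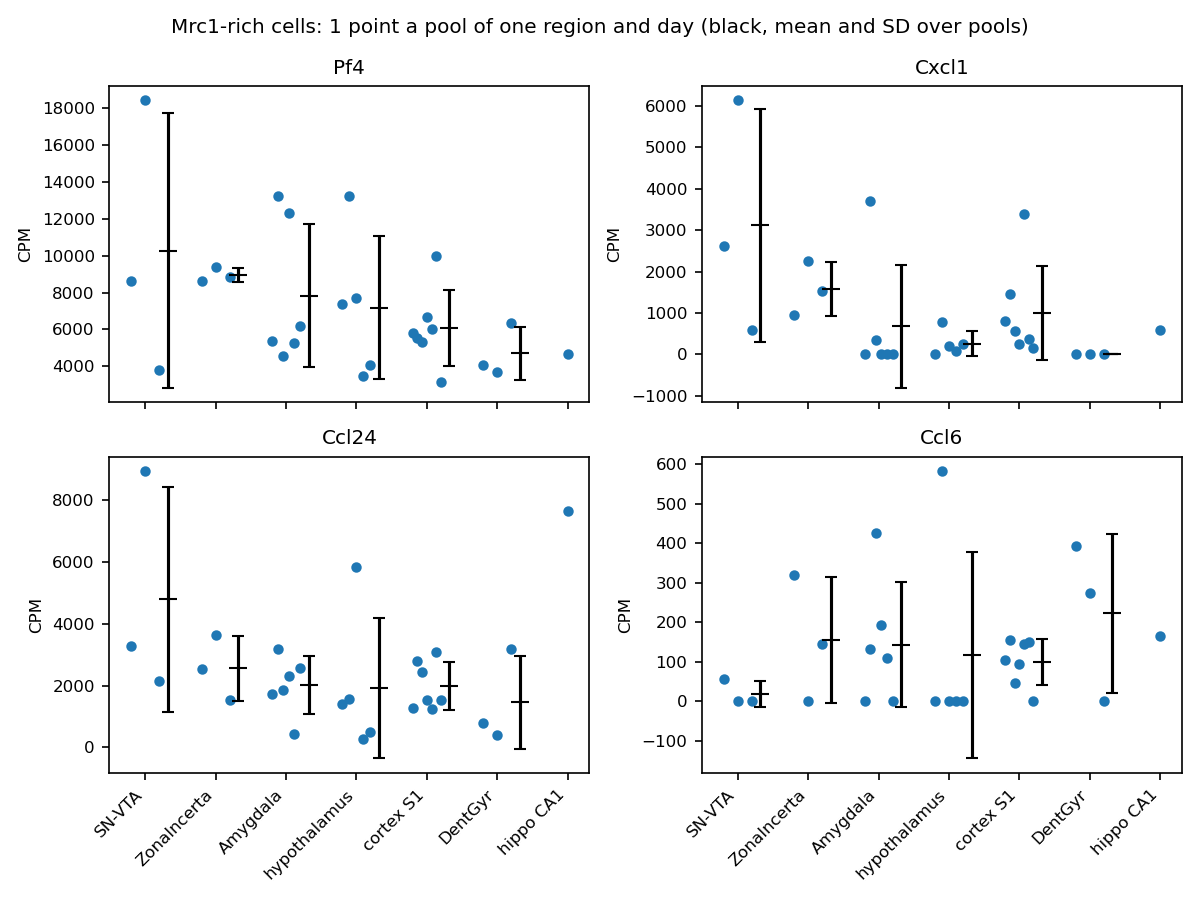
Level of each gene in CPM (y axis) in pools of Mrc1-rich cells by region (x axis), 1 point a pool of 1 postnatal day with at least 3 cells; the black mark and bar are the mean and SD over pools. Cxcl1 is at 0 in all 3 DentGyr pools, below every cortex S1 pool and the hippo CA1 pool, and reaches 6137 CPM in SN-VTA. For Ccl24 the hippo CA1 pool lies above all DentGyr pools. The ranges of regions plotted side by side overlap for Pf4 and Ccl6.

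The test across 6 regions (edgeR quasi-likelihood, 27 pools, 172 cells, day as a covariate, Benjamini-Hochberg adjustment over 649 genes) called 17.3% of the genes at an adjusted p under 0.05. Adjusted p was 0.103 for Cxcl1, 0.206 for Ccl24 and 0.296 for Pf4, and Ccl6 was too low to be tested. Between pairs of regions, with 9735 tests over 15 pairs and 123 called (1.26%), no pair passed for a member, and the lowest adjusted p by edgeR was 0.111, for Cxcl1 between DentGyr and SN-VTA. Cxcl1 did pass across regions with DESeq2 (adjusted p = 0.0187), without a filter on low counts (0.000259) and in thinned cells (0.0461), or without the Amygdala pool of day 25 (0.00463) or the cortex S1 pool of day 27 (0.0357). In pools of at least 5 cells its adjusted p was 0.997. Ccl24 passed without the DentGyr pool of day 23 (0.0228) or the hypothalamus pool of day 25 (0.0264), and Pf4 passed with pools of 2 cells added (0.0209). The labels name no animals, so these p-values measure the spread between pools.

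Other values moved with region too. The summed oligodendrocyte markers of the Mrc1-rich pools averaged 72239.7 CPM ± 63123 in SN-VTA and 36496 ± 21646 in cortex S1, against 8299 ± 9071 in hypothalamus, 1537 ± 971 in ZonaIncerta, 645 ± 1199 in Amygdala, 191 ± 75.1 in DentGyr and 247 in the hippo CA1 pool. SN-VTA, with the highest Cxcl1 mean, was also the highest in these markers. ZonaIncerta, with the second-highest Cxcl1 mean, was low in them. So was the single hippo CA1 pool, whose Ccl24 level of 7652 CPM rested on 4 cells. The genes known to respond to tissue dissociation summed to 21345 CPM ± 8923 in hypothalamus, 18126 ± 4253 in ZonaIncerta, 15881 in hippo CA1, 15059 ± 5559 in SN-VTA, 11824 ± 2228 in DentGyr, 11508 ± 4227 in cortex S1 and 8462 ± 5599 in Amygdala. The NF-kB response genes summed to 11355 CPM in hippo CA1, 7749.8 ± 4134 in ZonaIncerta, 4699 ± 1705 in SN-VTA, 4297 ± 2465 in hypothalamus, 3526 ± 1636 in cortex S1, 2208 ± 1231 in Amygdala and 2200.4 ± 987 in DentGyr. Their part in the levels of the members was not tested. Across the 28 pools, Pearson's r of Cxcl1 on the log2(CPM + 50) scale was 0.52 with the NF-kB genes, 0.46 with the dissociation genes and 0.45 with the oligodendrocyte markers, and that of Ccl24 with the NF-kB genes was 0.63. Values of like size were found between members, with Cxcl1 at 0.46 with Ccl24 and 0.45 with Pf4, and Pf4 at 0.56 with Ccl24. Pf4 was at 0.50 with the perivascular macrophage markers, and Ccl24 at 0.08 with the oligodendrocyte markers. Pools of one region, and of one day, are not independent points.

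The other genes of these pathways were followed in the same fit, in lists taken from general knowledge. Of 5 other CC chemokines tested, 1 differed between regions, Ccl2, a monocyte attractant (adjusted p = 0.00874, edgeR). Neither of 2 further chemokines (Cxcl2 at 0.0605 and Cx3cl1 at 0.145) and neither of 2 receptors passed. Of 5 NF-kB response genes, 1 passed, Il1a, which encodes a cytokine (0.0181). Of 14 dissociation genes, 2 passed, the heat shock genes Hspa1a and Hspa1b, and 0 of 3 IL-4 response genes did. Over all genes 17.3% passed, so these counts show nothing particular to the lists. The median F was 2.90 over the 5 CC chemokines, 2.81 over the 5 NF-kB genes and 1.82 over the 14 dissociation genes, beside 1.41 over all 649 genes. It was 3.23 over the 2 further chemokines, 2.65 over the 2 receptors and 1.47 over the 3 IL-4 response genes. Medians over so few genes carry no finding.

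No member was called for a change with age among the postnatal Mrc1-rich pools. In the same 27 pools, with region as a covariate, the log2 change per day was -0.06 ± 0.04 (SE) for Pf4, -0.13 ± 0.16 for Cxcl1 and -0.05 ± 0.06 for Ccl24, each at an adjusted p of 0.991 by edgeR. Of 649 genes edgeR called 0 (0%) and DESeq2 called 0, while 19 and 27 of them were under 0.05 before adjustment. The 6 brain cells of days 67 to 90 held no Pf4, Cxcl1 or Ccl24, and none of them was Mrc1-rich, so they give no older value for the Mrc1-rich cells.

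In Mrc1-absent cells, where Ccl6 was the member with counts, its level was spread over regions without a call. Pools averaged 310.4 CPM ± 328 (22 pools). Hypothalamus stood at 438 and 1121 CPM in its 2 pools, the SN-VTA pool at 759 CPM, Amygdala averaged 402 ± 350.2 (4 pools) and DentGyr ran from 0 to 223 CPM (6 pools). Across regions (edgeR, 20 pools) 18.3% of 597 genes were called, and Ccl6 had an adjusted p of 0.865. In the same test 1 of 6 other CC chemokines was called, Ccl7 (1.37e-05), and neither 2 further chemokines nor 3 receptors were.

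Among cells under the embryonic label, those rich in Mrc1 held Pf4 in cortex S1 and not in ventral midbrain, and dorsal horn had no such cells. All 6 Mrc1-rich cells of embryonic cortex S1, which shared 1 chip, held Pf4, with 8, 12, 7, 53, 6 and 6 UMIs. In the same order they held 19, 0, 2, 2, 0 and 0 Cxcl1 UMIs, and 30, 8, 0, 11, 8 and 16 Ccl24 UMIs. Their summed levels were 4133 CPM for Pf4 (3331 to 5068), 1033 for Cxcl1 (655 to 1550.2) and 3279 for Ccl24 (2570.3 to 4123), each within the range of the 7 postnatal cortex S1 pools or, for Ccl24, just above its highest of 3074. Each of these 6 cells held F13a1, Cbr2 and Stab1, markers of perivascular macrophages, and none held Tmem119 or P2ry12. Beside the oligodendrocyte markers given above, their dissociation genes summed to 20169 CPM and their NF-kB genes to 14509 CPM, against 3043 and 1720.0 CPM in the Mrc1-rich ventral midbrain cells, and the part of these in the result was not tested.

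The 2 Mrc1-rich cells of embryonic ventral midbrain, from different chips, held no Pf4, Cxcl1 or Ccl24 among 7249 and 7867 UMIs, and held 5 and 2 Ccl6 UMIs. The 0 of Pf4 allows up to 198 CPM over both. With 25 and 5 Mrc1 UMIs they passed the division, but 5 of 9 perivascular macrophage markers were at 0, and the microglia markers summed to 9196 CPM over both. The first also had 74 UMIs of Spp1, which encodes osteopontin, and the second 22 of P2ry12. Across all 25 embryonic ventral midbrain cells, Pf4 had 1 UMI and Ccl24 had 2, whereas 1 cell with a single Mrc1 UMI had 15 Cxcl1 UMIs among 1851.

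The test of embryonic against postnatal Mrc1-rich pools (edgeR, 30 pools, 184 cells) called 17 of 1637 genes (1.04%) and none of the members. The log2 difference was -1.47 ± 0.71 (SE) for Pf4 (adjusted p = 0.416), -0.62 ± 1.63 for Cxcl1 (0.930), -0.25 ± 0.86 for Ccl24 (0.946) and 1.96 ± 0.87 for Ccl6 (0.398). Only 2 pools are embryonic by label, 1 per region, and region was no term of the fit. SN-VTA, which lies in the ventral midbrain, is the postnatal counterpart of 1 of them. Leaving out either pool leaves a lone embryonic pool that is assumed to vary like the postnatal pools, so these values support no call. Without cortex S1, the pool left had 0 UMIs of Pf4 and Ccl24 (edgeR adjusted p = 3.33e-07 and 0.00230), and without ventral midbrain the log2 differences of Ccl24 and Cxcl1 turned to 0.72 and 0.30. Of 6 other CC chemokines 1 was called, Ccl3, higher in the embryonic pools (0.00106).

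In Mrc1-absent cells under the embryonic label Ccl6 was again the main member. It had a UMI in 10 of 17 ventral midbrain cells (379 CPM, 256 to 541) and 5 of 7 dorsal horn cells (664 CPM, 331 to 1188), and in 0 of 5 cortex S1 cells, which allows up to 278 CPM. Against the postnatal pools (edgeR, 25 pools, 140 cells) its log2 difference was 1.05 ± 0.81 (adjusted p = 0.775), or 0.33 without the dorsal horn pool and 1.57 without cortex S1 (adjusted p = 0.973 and 0.825), in a test that called 0 of 670 genes (0%). DESeq2 also called 0, and before adjustment 53 genes by edgeR and 54 by DESeq2 were under 0.05. The part of the oligodendrocyte RNA of the dorsal horn cells in their Ccl6 level was not tested.

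Ccl6 was high in both cells from dorsal epidermis, 1 of which had the highest level of any cell. They came from different chips and held 95 of 6431 and 30 of 6175 UMIs, or 14772 CPM (11952 to 18058) and 4858 CPM (3278 to 6936). Of the other 407 cells, 1 reached the lower of these (5217 CPM), and none of the 203 postnatal Mrc1-rich cells did. Ccl9 had 44 and 11 UMIs there. Both cells held 9 Pf4 UMIs (1399 and 1457 CPM), and 190 of the 203 postnatal Mrc1-rich brain cells stood at or above the lower of these levels. Ccl24 had 15 and 17 UMIs, and Cxcl1 had 19 in 1 cell and 0 in the other. Both were Mrc1-rich, with 8 and 16 UMIs, and 7 of 9 perivascular macrophage markers were present over both. F13a1 (18 and 28 UMIs), Cbr2 (23 and 14) and Folr2 (15 and 43) were in both cells, Cd163, Ms4a7 and Lyve1 only in the second, and Stab1, found in 197 of 203 postnatal Mrc1-rich brain cells, was at 0 in both. They also held Ccr2, a receptor of monocyte-derived cells, at 15 and 22 UMIs, a gene with 3 UMIs in all Mrc1-rich brain cells of the postnatal period, and the antigen-presentation gene Cd74 at 16 and 26. Keratinocyte markers summed to 9796 and 5506 CPM in these cells, and their part in the levels was not tested. Of 10 microglia markers, 8 were at 0. These are 2 cells of 1 age and give no test.

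The 2 bone marrow cells, from 1 chip, held no Pf4, Cxcl1 or Ccl24 and 4 and 3 Ccl6 UMIs (2807 and 1014 CPM). They had no Mrc1. Ccr2 (6 and 14 UMIs), the monocyte marker Plac8 (4 and 23) and Fn1 (11 and 28) were present. At 1425 and 2960 UMIs, the absence of Pf4 allows up to 684 CPM over both cells.

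Pf4 is also a platelet gene, so the platelet and megakaryocyte markers were read beside it. Of 8, 5 were at 0 in Mrc1-rich cells, among them Gp9 and Tubb1, while Itga2b had 6 UMIs and Treml1 had 1. Per cell the list ran from 0 to 2312 CPM in Mrc1-rich and from 0 to 1715 CPM in Mrc1-absent cells, where Gp9 had 16 UMIs. Gp1bb stood at 194 CPM in Mrc1-rich cells and 256 CPM in Mrc1-absent cells, where Itga2b was at 0. The part of platelet RNA in the Pf4 level was not tested. Granulocyte and mast cell markers were at 0 on both sides. Lymphocyte, dendritic cell and monocyte markers summed to 13, 17 and 57 UMIs over all Mrc1-rich cells and 8, 6 and 54 over all Mrc1-absent cells.

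Among all chemokines of the table, Pf4 was second to Ccl7 in Mrc1-rich cells. Ccl7, a monocyte attractant, stood at 6059.6 CPM there and 327 CPM in Mrc1-absent cells. Ccl2 (4997 and 979.6 CPM) and Ccl12 (3722 and 819.9 CPM), which both act on Ccr2, had the same order. Ccl3 (2592 and 5707 CPM) and Ccl4 (898 and 4660.3 CPM), which attract monocytes and lymphocytes, had the reverse order, as Ccl6 and Ccl9 did. Cxcl2, the neighbour and near relative of Cxcl1, was higher in the Mrc1-rich cells (1395 and 312 CPM), but unlike Cxcl1 it had a UMI in 26 Mrc1-absent cells. Cxcl10 was at 127 and 518 CPM and Cx3cl1 at 199 and 238 CPM. Cxcl5, which lies 10.8 kb from Pf4, had 1 UMI on each side, while Ppbp, Cxcl3 and Cxcl15 were not analysed here.

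**Figure D5:**
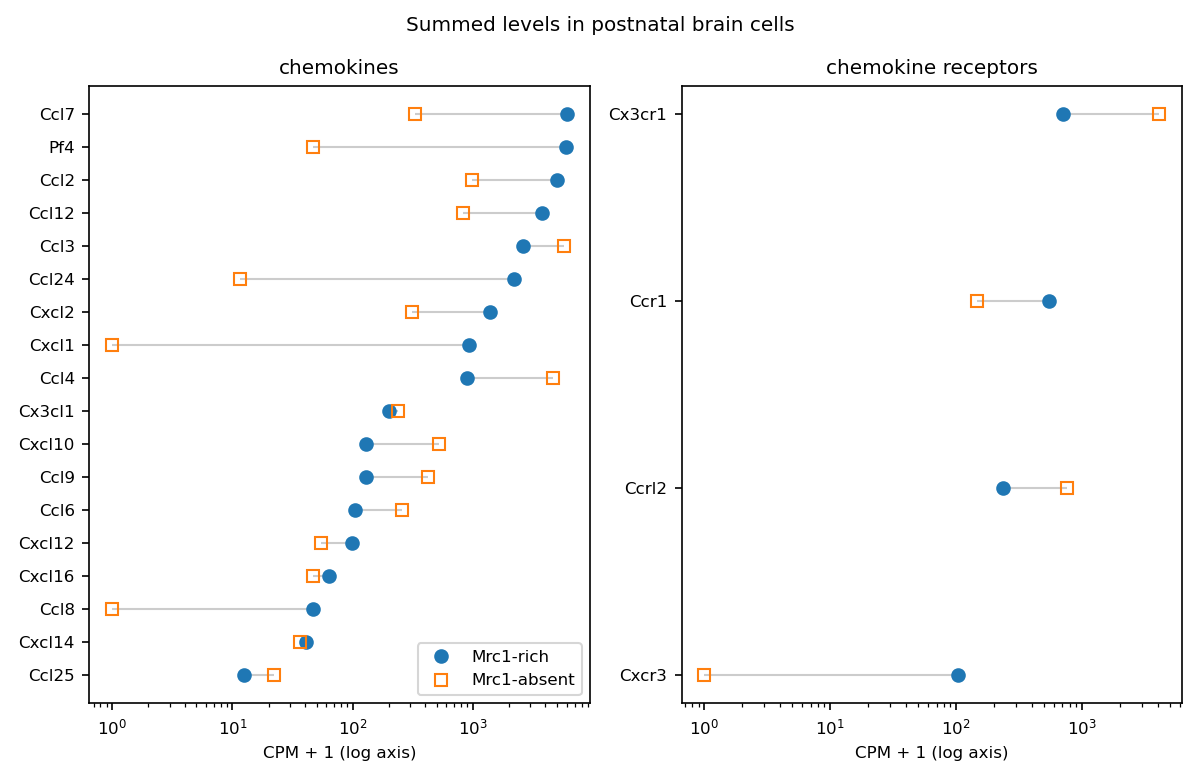
Summed level of each chemokine with at least 10 UMIs (left) and of the receptors Cx3cr1, Ccr1, Ccrl2 and Cxcr3 (right), as CPM + 1 on a log axis, in postnatal Mrc1-rich cells (filled circles) and Mrc1-absent cells (open squares); genes are in order of the Mrc1-rich level. The squares of Pf4 (46.1 CPM), Ccl24 (10.6 CPM) and Cxcl1 (0) lie far to the left of their circles, whereas that of Ccl6 lies to the right.

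The receptors of the 4 ligands differed in the same cells. Cxcr3, a receptor for Pf4, had 54 UMIs in 32 Mrc1-rich cells and none in Mrc1-absent cells. Ccr1, the receptor for Ccl6, was at 550.4 CPM in Mrc1-rich cells and 146 CPM in Mrc1-absent cells, the opposite order to its ligand. Cxcr2, for Cxcl1, had 0 and 1 UMI, and Ccr3, for Ccl24, had 3 and 1. The most abundant receptors of the list were Cx3cr1 (704 and 4107 CPM), a microglial gene, Ccr1 and the atypical receptor Ccrl2 (233 and 763 CPM). The IL-4 response genes Clec10a (554 CPM), Igf1 (512 CPM) and Msr1 (277 CPM) were found in Mrc1-rich cells and had 0, 4 and 1 UMIs in Mrc1-absent cells. Nfkbia, the inhibitor of NF-kB (1091 and 2009 CPM), Nfkbiz (833 and 1065 CPM) and Tnf (271 and 866 CPM) were lower in Mrc1-rich cells. Their part in the Cxcl1 level was not tested. Among the dissociation genes, Ier3 (1879 and 1207 CPM) and Dusp1 (1389 and 763 CPM) were higher in Mrc1-rich cells and Zfp36 (1867 and 2239.7 CPM) was lower.

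The genes whose level over the 28 Mrc1-rich pools was most like that of each member were named by Pearson's r on the log2(CPM + 50) scale, among about 170 genes with a mean of at least 500 CPM. For Pf4 they were Tyrobp (r = 0.66), Ier3, Sepp1, Clec4n and Ccl12 (0.59). For Cxcl1 they were Fosb (0.66), Ccl2, Plek, Cd14 and Glul (0.57). For Ccl24 they were Igfbp4 (0.69), Ccl2, Litaf, Gimap6 and Pf4 (0.56). For Ccl6 the highest was Sirpa (0.43), followed by Ccr1, Mbnl1, Lgals1 and Mef2c (0.37). The pools share regions, days and chips, so these values describe the pools and carry no p.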

How the data were processed

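The authors deposited 1 table of counts of unique molecules (UMIs) per gene and cell. Per the labels' protocols, tissue was dissociated with papain for 25 to 45 min, cells were captured on C1 chips, and 5′ ends were tagged. The submitters' processing notes name the build mm10; for the aligner and counter, nothing is given in the sources used here. Totals over the listed genes (729 to 10260 UMIs) set CPM and are not full sequencing depth. Intervals are exact (95%, Poisson or binomial); limits for a count of 0 take 3 counts; both cover counting error only. No cell filter or doublet caller was applied.

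Cells with at least 3 Mrc1 UMIs were called Mrc1-rich. Counts were summed over cells of 1 region and postnatal day (at least 3 cells; 2 for whole-day and embryonic Mrc1-rich pools) and tested with edgeR 4.0.16 (quasi-likelihood F-test, TMM, filterByExpr at min.count 5 and min.total.count 15, Benjamini-Hochberg adjusted p under 0.05, R 4.3.3), with DESeq2 1.42.0 as an alternative. Mrc1 was left out of tests, which were tried on simulated data. Descriptive statistics used Python 3.11.15, numpy 2.4.6, pandas 2.3.3 and scipy 1.17.1. Named genes are the 4 members, their receptors, the 3 most abundant genes of each pathway list and the 5 genes most like each member; cell markers, Ccl3, Ccl4, Ccl9, Cxcl5, Il1a, Hspa1a, Hspa1b, Spp1, Fn1 and Cd74 were named after their values were seen. The members and lists were chosen with earlier results of these data known. The 16 sscortex cells were left out. Some genes are not reported here.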

Additional observations from a re-analysis of the deposited data

Results flagged for a closer look

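Of 18 sets of 4 to 7 pools of 1 gene, region and cell class that were checked for a pool far from the others, 7 had one. Chance gives about 1 in 20 for continuous values, a rate that does not hold for the 4 of these sets in which all other pools were at 0, where any count is marked. Among Mrc1-rich cells, the Amygdala pool of day 25 stood at 3700.3 CPM of Cxcl1 with the others between 0 and 356, and at 1573 CPM without its top cell. The cortex S1 pool of day 27 stood at 3391 CPM of Cxcl1 with the others between 159.9 and 1454, and at 986 CPM without the cell that held 70 of its 93 UMIs. The hypothalamus pool of day 25 stood at 5845 CPM of Ccl24 with the others between 262 and 1553, with 15, 11 and 5 UMIs in its 3 cells. The hypothalamus pool of day 23 stood at 583 CPM of Ccl6, from 3 UMIs, with the others at 0. Among Mrc1-absent cells, all from ZonaIncerta, Pf4 stood at 894 CPM on day 22 (13 UMIs in 1 of 11 cells), Ccl24 at 68.7 CPM on day 22 (1 UMI) and Ccl6 at 663 CPM on day 21 (3 UMIs in 1 cell), with the other pools at 0.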

How the results depend on the processing

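Of 96 recomputed region levels, 93 moved by less than the spread between pools. The regional test in Mrc1-rich cells called 17.3% of 649 genes; the number called was 425 without a filter, 37 at a minimum count of 10, 19 in pools of at least 5 cells, 43 in pools of 1 chip, 28 in thinned cells and 88 to 178 leaving out single pools. Adjusted p for Pf4 was 0.0209 with pools of at least 2 cells, and 0.103 to 0.536 leaving out single pools. For Cxcl1 it was 0.0187 with DESeq2, 0.000259 without a filter, 0.0461 in thinned cells, and 0.00463 to 0.236 leaving out single pools. For Ccl24 it was 0.0175 with Mrc1-rich from 5 UMIs, 0.0155 with a second marker and no Tmem119, and 0.0228 to 0.339 leaving out single pools. For age, 1 gene was called without a filter and 0 leaving out any pool; the log2 change per day turned to 0.03 for Pf4 and 0.03 for Cxcl1 in pools of at least 5 cells and to 0.02 for Ccl24 in pools of at least 2, and leaving out single pools it ran from -0.10 to -0.05, from -0.27 to -0.08 and from -0.09 to -0.03. In Mrc1-absent cells the regional test called 45 genes with DESeq2, 46 at a minimum count of 10, 42 in pools of 1 chip, 36 in thinned cells and 55 to 128 leaving out pools, with Ccl6 at 0.457 to 0.919. The stage test there called 287 genes without a filter, 11 in pools of 1 chip, 8 over all cells and 0 to 4 leaving out pools, with Ccl6 at 0.33 to 1.57. In Mrc1-rich cells, by alternatives chosen after seeing the data, the stage test called 3 genes with DESeq2, 129 without a filter, 8 at a minimum count of 10, 0 in thinned cells and 12 to 30 leaving out pools; log2 differences ran from -9.58 to -0.49 for Pf4, -6.79 to 0.30 for Cxcl1, -8.04 to 0.72 for Ccl24 and 1.86 to 1.99 for Ccl6, where values against a pool at 0 depend on the prior count. The share of Mrc1-rich cells with Pf4 was 100.0% from 5 Mrc1 UMIs; thinned shares were 95.2% for Pf4, 25.1% for Cxcl1, 68.4% for Ccl24 and 8.02% for Ccl6. Apart from smaller or larger sets of genes, cells and pools, the cause of these changes was not tested. Regions in Mrc1-absent pools of at least 5 cells, and stage in Mrc1-rich cells with pools of 1 chip or a second marker, could not be fitted. The region means without single pools were added after seeing the data.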
